A study of Mus musculus with 6 samples.

Results

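Genes of the hypoxia-inducible factor (HIF) pathway were examined in neutrophils stimulated with lipopolysaccharide (LPS), the endotoxin of Gram-negative bacteria. The set held 9 genes, found by symbol among the 38739 genes of the expression table: *Hif1a*, which encodes the oxygen-regulated subunit of HIF-1, the prolyl hydroxylases *Egln1*, *Egln2* and *Egln3*, and *Ddit4*, *Bnip3*, *P4ha1*, *Adm* and *Ankrd37*, which are known targets of HIF. All 9 were in the table, and all were among the 23049 genes with a value above 0 in at least 1 sample, which were the genes tested. RNA sequencing was performed on 6 samples of peritoneal neutrophils from cGAS knockout mice of the strain labelled C57B/L6, which lack the cytosolic DNA sensor cGAS. Per the methods of the study the mice were male and 8 weeks old, and the cells were taken by lavage 2 h after injection of thioglycollate, an irritant that draws neutrophils into the peritoneum. There were 3 untreated samples, kept in medium for 2 h, and 3 LPS samples, kept for 2 h with LPS at 500 ng/mL per the labels, although the methods give a lower dose. Controls carried the knockout as well and no wild-type sample was sequenced, so each difference is that of LPS in the absence of cGAS. The sources do not say whether the 3 samples of a group came from separate mice, and p-values therefore measure only the spread between these samples.

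HIF-1 is made of an alpha and a beta subunit. In the presence of oxygen the EGLN enzymes (also called PHD enzymes) hydroxylate prolines of the alpha subunit, after which the VHL protein binds it and it is degraded. When oxygen is low the hydroxylases slow, the alpha subunit accumulates in the nucleus, and the complex binds DNA at short elements with the core ACGTG or GCGTG. In myeloid cells LPS can also raise *Hif1a* transcription through NF-κB, and HIF-1 is known to prolong neutrophil survival and to maintain glycolysis. *Egln3* is itself a target of HIF, as *Egln1* often is, whereas *Egln2* is not generally counted among them.

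The regions just before the gene starts are shown first because HIF acts on its targets through this element. The core was searched as ACGTG or GCGTG on either strand, that is also as CACGT or CACGC, within the 250 bases before each start given by RefSeq on the GRCm38.p6 build. All 9 members had at least 1 match, against 41.5% of the 27025 genes with such a region. The members were chosen as genes of the HIF pathway, and the background was not matched for GC content. These shares are therefore not a test of enrichment. Matches numbered 5 for *Bnip3*, 4 for *Ankrd37* and for the upstream start of *Egln2*, 3 for *Hif1a* and *P4ha1*, 2 for *Egln1*, *Ddit4* and *Adm*, and 1 for *Egln3* and for the downstream start of *Egln2*. Of all 32851 regions, 2.58% held 4 or more. Matches on opposite strands can overlap, as they do in CACGTG, which occurred in *Hif1a* and *Bnip3*, and in CACGCGTG, which occurred in *Ankrd37*. A match describes the letters only and is not a shown binding site, and the data hold no measure of HIF binding. The first 3 sequences belong to the genes whose untreated and LPS values did not overlap, and the last 2 to the targets with the most matches, whose values did overlap. They are written 5′ to 3′ on the strand of the gene, with matches in capitals.
Adm, chr7:110627407-110627656, plus strand: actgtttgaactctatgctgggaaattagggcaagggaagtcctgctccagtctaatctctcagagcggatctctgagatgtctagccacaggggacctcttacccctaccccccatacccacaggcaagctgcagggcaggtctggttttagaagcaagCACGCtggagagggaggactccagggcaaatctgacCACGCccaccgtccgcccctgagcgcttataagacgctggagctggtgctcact
Egln2, chr7:27166803-27167052, minus strand: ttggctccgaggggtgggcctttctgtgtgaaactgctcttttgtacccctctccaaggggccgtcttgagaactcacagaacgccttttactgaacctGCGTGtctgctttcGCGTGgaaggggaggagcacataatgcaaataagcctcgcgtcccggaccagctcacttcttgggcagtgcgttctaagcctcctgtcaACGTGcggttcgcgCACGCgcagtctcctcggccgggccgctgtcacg
Ddit4, chr10:59951771-59952020, minus strand: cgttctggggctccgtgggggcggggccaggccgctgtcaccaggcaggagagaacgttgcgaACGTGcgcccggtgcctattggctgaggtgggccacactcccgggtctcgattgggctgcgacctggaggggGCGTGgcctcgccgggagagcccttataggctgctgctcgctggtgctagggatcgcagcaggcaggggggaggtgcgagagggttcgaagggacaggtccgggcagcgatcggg
Ankrd37, chr8:45999851-46000100, minus strand: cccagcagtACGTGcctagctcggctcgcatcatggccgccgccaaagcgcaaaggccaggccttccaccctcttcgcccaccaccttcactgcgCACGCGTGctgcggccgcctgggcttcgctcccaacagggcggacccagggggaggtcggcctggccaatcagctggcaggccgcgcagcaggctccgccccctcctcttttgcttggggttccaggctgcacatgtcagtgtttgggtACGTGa
Bnip3, chr7:138909507-138909756, minus strand: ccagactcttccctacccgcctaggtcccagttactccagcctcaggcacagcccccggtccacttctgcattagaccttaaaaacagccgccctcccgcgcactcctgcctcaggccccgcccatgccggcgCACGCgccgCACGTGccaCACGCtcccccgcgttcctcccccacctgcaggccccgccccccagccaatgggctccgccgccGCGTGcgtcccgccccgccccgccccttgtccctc

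Expression is given as scaled TPM, taken to be the length-normalized TPM of the transcripts of each gene, averaged and then rescaled in each sample. An average over transcripts depends on how many a gene is annotated with (in GENCODE M39, 1 for *Egln3*, 17 for *Egln1*, 33 for *Egln2* and 36 for *Hif1a*), so values were compared between samples for the same gene and not between genes. The number of reads behind each value is unknown. Differences are LPS minus untreated on the log2(value + 1) scale, which understates the change of low genes. Each gene was tested with limma over all tested genes. A gene was called when its unadjusted p was under 0.01 and its log2 fold change beyond 2, the limits of the study, and Benjamini-Hochberg adjusted p-values over all 23049 genes are given beside them.

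After LPS, *Adm*, which encodes the vasodilator peptide adrenomedullin, and the prolyl hydroxylase *Egln2* passed the limits, both upward. The other 7 members were not called, and no member was called lower. *Ddit4*, an inhibitor of mTORC1, had the largest difference of the 9 but untreated values too uneven to pass. Over all tested genes these limits called 2.99%, with 1.69% higher and 1.31% lower, and among genes with a mean of at least 1, as all 9 members have, 4.14% were called higher. No member (0 of 9) reached an adjusted p under 0.05 with limma, a limit that 1.84% of all tested genes passed, 0.894% upward and 0.946% downward. Taking either rule together called 3.28% of all genes. At an unadjusted p under 0.05, 3 members passed (16.9% of all genes). The LPS values lay above all untreated values in 3 members, *Adm*, *Egln2* and *Ddit4*, against 13.1% of all tested genes and 19.1% of the 9403 with a mean of at least 1, and below them in 0 members, against 9.75%. The log2 fold change was above 0 in 5 members and below 0 in 4, with a median of 0.62, while that of all tested genes was 0.01 and that of genes with a mean of at least 1 was 0.13.

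**Figure D1:**
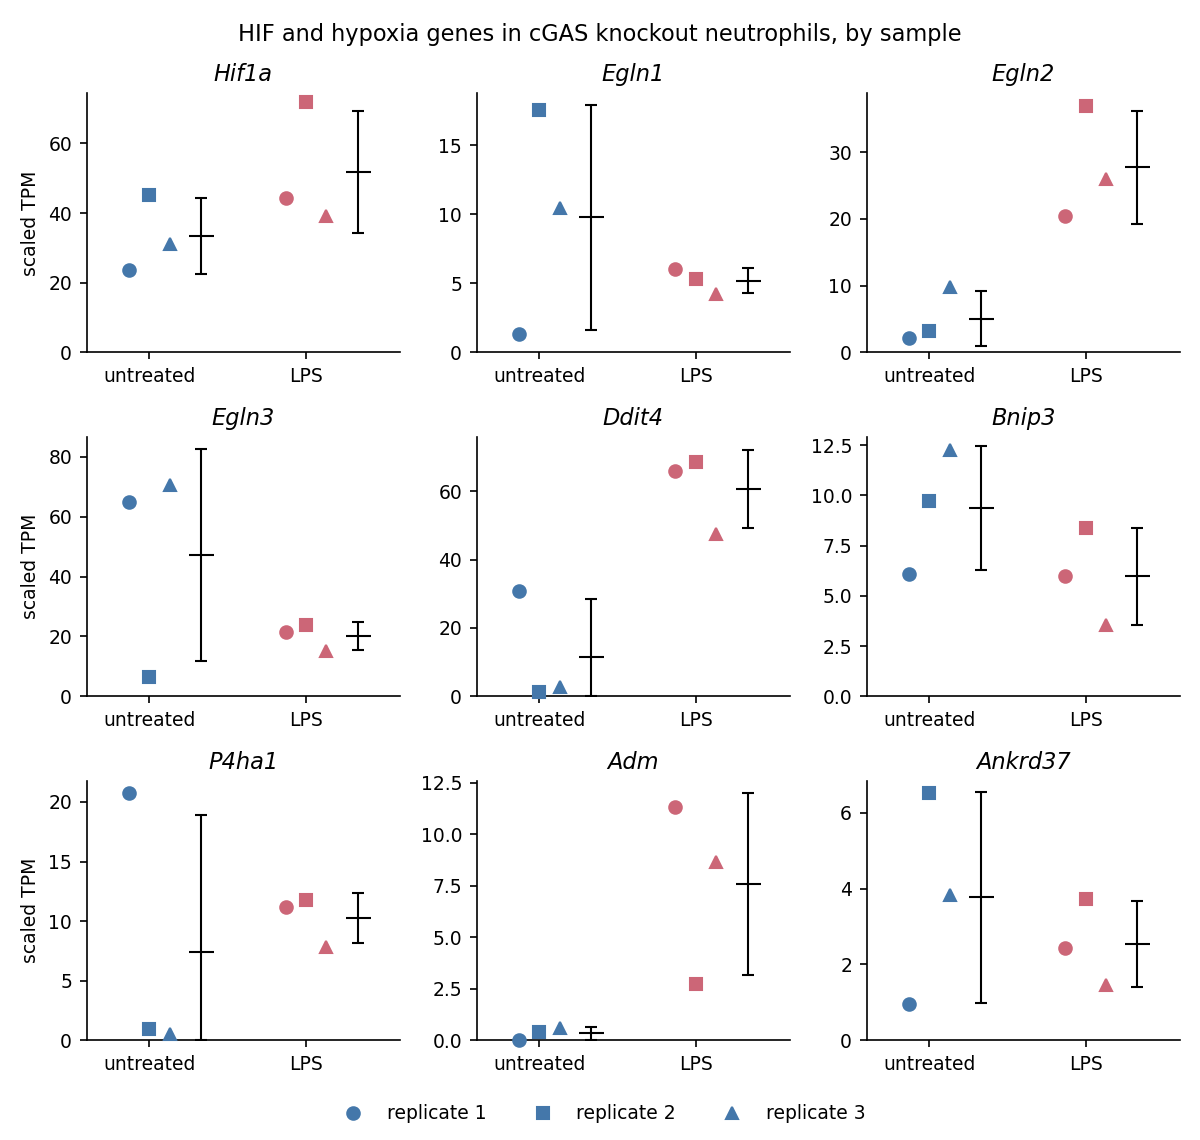
Scaled TPM (linear axes from 0, a separate scale for each gene) of the 9 genes in untreated (blue) and LPS (red) samples, with the marker shape giving the replicate number. Horizontal bars show the mean and vertical lines the SD of 3 samples, cut at 0; *Egln2*, *Ddit4* and *Adm* have all LPS samples above all untreated samples.

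**Figure D2:**
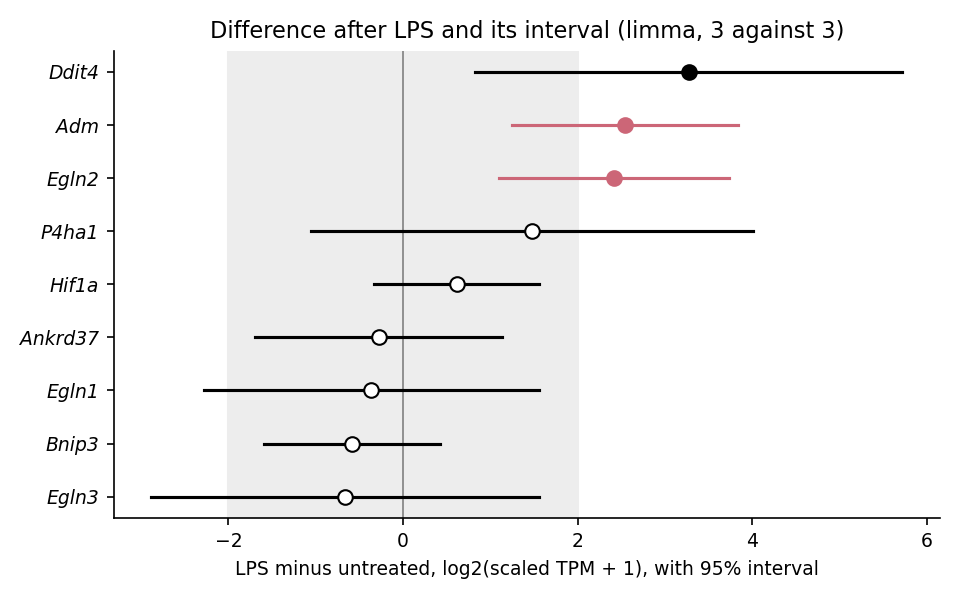
Difference of each gene (LPS minus untreated, log2(scaled TPM + 1)) with its 95% interval from limma. The shaded band spans the fold limit of 2 in either direction; red marks the called *Adm* and *Egln2*, filled symbols the genes whose groups did not overlap, and *Ddit4* lies beyond the band with an interval from 0.82 to 5.71.

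*Hif1a* (ENSMUSG00000021109, GRCm39, chromosome 12, 73948149 to 73996321, plus strand) was measured at 23.7, 45.2 and 31.2 scaled TPM in untreated samples 1, 2 and 3 and at 44.2, 71.8 and 39.2 in LPS samples 1, 2 and 3. The groups overlapped, since untreated 2 exceeded LPS 1 and LPS 3. The mean was 33.4 ± 10.9 (SD, n = 3) untreated and 51.7 ± 17.6 (SD, n = 3) with LPS, a log2 fold change of 0.62 (SE 0.39, 95% interval -0.33 to 1.56, adjusted p = 0.484). The interval left room for a rise of up to 2.95-fold on the fitted scale and a fall to 0.797-fold. Voom weights, meant for counts, gave a log2 fold change of 1.26 and an adjusted p of 0.0498. That fit also scales each sample by its summed value, and its median log2 fold change over all genes was 0.67. It put 9303 of 23049 genes at an adjusted p under 0.05. Within each group the sample numbered 2 was the highest. Those samples, untreated 2 and LPS 2, also had the highest summed neutrophil markers of their group and the lowest B cell and erythroid sums, and the part of this in the *Hif1a* values was not tested. An antisense lncRNA at the locus, *Gm15283*, stood at 0.827 to 2.63 scaled TPM, and the strand setting of the counting is not given in the sources used here.

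The 3 genes whose pattern over the 6 samples was most like that of *Hif1a*, by Pearson's r of log2(value + 1) among 4237 genes with a mean of at least 5, were *Gm42462* (r = 0.992), *Wdfy3* (r = 0.991) and *Wsb1* (r = 0.985). *Wsb1* was at 18.6, 40.3 and 22.6 scaled TPM in the untreated and 43.4, 71.6 and 37.7 in the LPS samples. With 6 samples that share libraries this is a description only.

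Of the 3 prolyl hydroxylases 1 was called, *Egln2*, which encodes PHD1. *Egln2* (ENSMUSG00000058709, chromosome 7, 26853588 to 26866408, minus strand) stood at 2.14, 3.23 and 9.85 scaled TPM in the untreated and at 20.4, 37.0 and 25.9 in the LPS samples. The lowest LPS sample was above the highest untreated sample. The means were 5.07 ± 4.17 and 27.8 ± 8.46 (SD, n = 3 each), a ratio of 5.47, and the log2 fold change was 2.41 (SE 0.54, 95% interval 1.09 to 3.74, adjusted p = 0.0879, limma). The adjusted p ranged from 0.0037 to 0.266 over the 18 alternative settings. The call held without untreated 3 and was lost when any of the other 5 samples was left out, with log2 fold changes of 2.04 to 2.94. With the summed value of protein-coding genes set equal in all samples the difference was 1.97, below the fold limit. An antisense neighbour, *Cyp2t4*, was at 0 to 0.101 untreated and 0.270 to 0.804 with LPS.

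*Egln1* (ENSMUSG00000031987, chromosome 8, 125635308 to 125676865, minus strand), which encodes PHD2, the main hydroxylase of HIF-1 alpha in most cells, showed no such separation. It was at 1.33, 17.5 and 10.5 scaled TPM untreated and at 6.06, 5.35 and 4.20 with LPS. Untreated 1 lay below every LPS sample while the other two untreated samples lay above them. The log2 fold change was -0.36 (SE 0.79, 95% interval -2.28 to 1.55, adjusted p = 0.813), and its sign depended on single samples, being 0.25 without untreated 2 and -1.24 without untreated 1.

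*Egln3* (ENSMUSG00000035105, chromosome 12, 54225767 to 54250673, minus strand), which encodes PHD3, was at 64.9, 6.54 and 70.5 scaled TPM untreated and at 21.5, 23.8 and 15 with LPS. Untreated 1 and 3 were the highest of all samples and untreated 2 the lowest. The mean was 47.3 ± 35.4 untreated and 20.1 ± 4.59 with LPS (SD, n = 3 each), with a log2 fold change of -0.66 (SE 0.91, 95% interval -2.88 to 1.55, adjusted p = 0.70). Without untreated 2 it was -1.73, without untreated 3 it was -0.10, without untreated 1 -0.16, and none of these was called.

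Ratios between members within a sample do not depend on the factor of that sample. As the values are averages over transcripts, the size of a ratio says nothing about which gene is more abundant, and only its shift between the groups is described. The 5 ratios computed were chosen after the values had been seen and are therefore given without a test. The ratio of *Egln2* to *Egln1* was 1.61, 0.184 and 0.939 in untreated samples 1, 2 and 3 and 3.36, 6.91 and 6.16 in the LPS samples. *Egln2* to *Egln3* was 0.0329, 0.494 and 0.140 untreated and 0.947, 1.55 and 1.73 with LPS. Both ratios were higher in every LPS sample than in any untreated sample. *Hif1a* to *Egln2* was 11.1, 14.0 and 3.17 untreated and 2.17, 1.94 and 1.51 with LPS, lower in every LPS sample. The ratios given so far all hold *Egln2*, whose own values did not overlap, and are not separate results. *Ddit4* to *Hif1a* was 1.30, 0.0263 and 0.0836 untreated and 1.49, 0.955 and 1.21 with LPS, and overlapped through untreated 1, which was above LPS 2 and LPS 3.

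**Figure D3:**
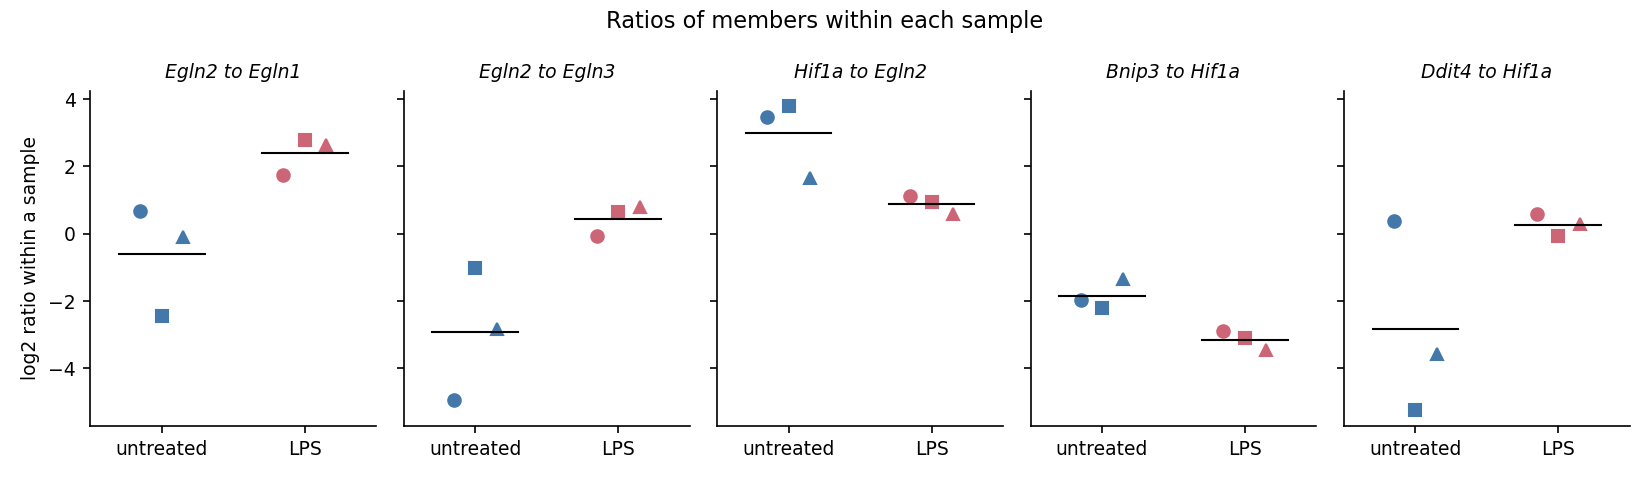
Log2 ratios of pairs of genes within each sample (only shifts between the groups can be read, since values are averages over transcripts), untreated in blue and LPS in red, with circles, squares and triangles for samples 1, 2 and 3 and a line at the group mean. The ratios were chosen after the values had been seen. The untreated and LPS samples did not overlap in 4 of the 5 ratios and overlapped in *Ddit4* to *Hif1a*. Of these 4, all but *Bnip3* to *Hif1a* hold *Egln2*, whose own values did not overlap, so they are not separate results. The mean log2 ratio of *Egln2* to *Egln3* was 3.38 higher with LPS.

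Among the targets, *Adm* (ENSMUSG00000030790, chromosome 7, 110226858 to 110229027, plus strand) went from listed at 0 in untreated 1, 0.395 in untreated 2 and 0.604 in untreated 3 to 11.3, 2.73 and 8.64 scaled TPM in LPS samples 1, 2 and 3. Every LPS sample was above every untreated sample, and LPS 2 was the lowest of the LPS samples. The log2 fold change was 2.54 (SE 0.53, 95% interval 1.25 to 3.84, adjusted p = 0.0765, limma), and the adjusted p ranged from 0.0026 to 0.261 over 18 alternative settings. The call was lost without untreated 1 (2.35), LPS 1 (2.20) or LPS 3 (2.37). As all untreated values were below 1, the pseudocount set the size of this difference, which was 4.33 with a pseudocount of 0.1 and 1.17, not called, with a pseudocount of 5. Macrophages also make adrenomedullin. The summed value of 12 macrophage or monocyte markers was 184 to 293 untreated and 326 to 445 with LPS. *Cd68* was the largest part of these sums, at 157 to 179 untreated and 230 to 381 with LPS. Of the markers, 1 (*C1qb*) was called higher, and none was called lower. The LPS values lay above all untreated values in 2 of the 12 and below them in 3, against 13.1% and 9.75% of all tested genes. None of the 12 was at 0 throughout, and the part of these cells in the *Adm* values was not tested.

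*Ddit4* (ENSMUSG00000020108, chromosome 10, 59785491 to 59788492, minus strand), also called REDD1, inhibits mTORC1 during hypoxia and other stress. It was at 30.9, 1.19 and 2.61 scaled TPM untreated and at 65.9, 68.6 and 47.5 with LPS. The groups did not overlap, but untreated 1 lay far above the other untreated samples. The mean was 11.6 ± 16.8 untreated and 60.7 ± 11.5 with LPS (SD, n = 3 each), and the log2 fold change of 3.27 (SE 1.00, 95% interval 0.82 to 5.71, adjusted p = 0.168, limma) did not pass the limit on p. Without untreated 1 it was 4.44 with an adjusted p of 0.029 and was called. It was called with values centred on the median (3.19) and with voom weights (4.08) too.

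*P4ha1* (ENSMUSG00000019916, chromosome 10, 59159092 to 59209126, plus strand), the catalytic subunit of collagen prolyl 4-hydroxylase, had the same uneven controls. Its values were 20.7, 0.929 and 0.507 scaled TPM untreated and 11.2, 11.8 and 7.81 with LPS. Untreated 1 was above all LPS samples and the other two below them all. The log2 fold change was 1.48 (SE 1.04, 95% interval -1.05 to 4.01, adjusted p = 0.544), and 2.70 with an adjusted p of 0.049 without untreated 1. *Ddit4* and *P4ha1* were thus both high in untreated 1.

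*Bnip3* and *Ankrd37*, commonly used as hypoxia markers, were not called in either direction. *Bnip3* (ENSMUSG00000078566, chromosome 7, 138490690 to 138511253, minus strand), a mitochondrial outer membrane protein that promotes mitophagy, was at 6.11, 9.72 and 12.3 scaled TPM untreated and at 5.99, 8.37 and 3.55 with LPS. The log2 fold change was -0.59 (SE 0.41, 95% interval -1.60 to 0.42, adjusted p = 0.547), and the interval lies below a 2-fold rise on the fitted scale. The groups overlapped in level, yet relative to *Hif1a* of the same sample *Bnip3* was 0.258, 0.215 and 0.393 untreated and 0.136, 0.116 and 0.0907 with LPS, without overlap. *Bnip3* shares 98.9% of 564 bases with *Gm16439* and 98.6% of 559 bases with *Gm6532*, pseudogenes not analysed here, and 95.2% of 567 bases with *Gm9419*, which was at 0 in all samples, so its value is uncertain to the extent that reads were split among them. No other member had a near-identical copy at this limit (95% identity or more over at least 500 bases).

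*Ankrd37* (ENSMUSG00000050914, chromosome 8, 46449939 to 46458744, minus strand) encodes a small ankyrin repeat protein. Its values were 0.947, 6.53 and 3.82 scaled TPM untreated and 2.42, 3.73 and 1.46 with LPS. The groups overlapped, and the log2 fold change was -0.28 (SE 0.58, 95% interval -1.69 to 1.14, adjusted p = 0.807). Without untreated 1 it was -0.82, and without untreated 2 it was 0.16. *Ankrd37* overlaps *Ufsp2* on the other strand, which was at 0.351, 4.26 and 4.4 untreated and 3.54, 3.39 and 2.49 with LPS. In both genes untreated 1 was the lowest sample.

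The untreated samples, rather than the LPS samples, carried most of the spread. The SD of log2(value + 1) was larger untreated than with LPS in 6 of 9 members. From lowest to highest untreated sample *P4ha1* spanned 40.9-fold, *Ddit4* 26.0-fold, *Egln1* 13.2-fold and *Egln3* 10.8-fold, whereas over the LPS samples these genes spanned 1.51-, 1.44-, 1.44- and 1.59-fold. Samples of the whole table showed the same order, as the correlation between samples over tested genes was 0.807 to 0.835 among untreated and 0.927 to 0.962 among LPS samples. The sum of all values was 603598 to 713384 untreated and 404674 to 465903 with LPS, and protein-coding genes held 21.0% to 28.3% of it untreated and 49.7% to 58.9% with LPS. All members are protein-coding, and with the protein-coding sum set equal in all samples each difference was lower, with *Hif1a* at 0.13, *Ddit4* at 2.82, *Adm* at 2.32 and *Bnip3* at -1.03, and no sign changed. This scaling moved the median of genes with a mean of at least 1 from 0.13 to -0.22. Of the 16 neutrophil markers 13 were in the table, with sums of 9785 to 28550 untreated and 16158 to 54727 with LPS. *S100a8* and *S100a9* held 85.7% to 92.5% of these sums. Over the 13 the median log2 fold change was -0.50, with 7 lower and 6 higher, the groups did not overlap in 4 lower (*Csf3r*, *Cxcr2*, *Il1r2* and *Ltf*) and 1 higher (*Hdc*), and *Cxcr2* was called lower (log2 fold change -2.67). Macrophage or monocyte, B cell (67.8 to 551) and erythroid (21.5 to 5629) transcripts were present as well, while mesothelial or stromal markers summed to 2.97 or less. In bulk RNA, fewer cells of a type and less RNA per cell cannot be told apart.

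Related genes were read from lists written for this purpose. Listed genes outside the table used here were not analysed, so that 14 of 23 genes of the HIF machinery and 24 of 40 other targets could be read, and *Vegfa* and *Epas1* were not among them. Of the 14 genes of the HIF machinery (partners of the alpha subunit, VHL complex, SIAH ligases and others), 2 were called higher and 0 lower, against 1.85% and 1.43% of all tested genes by either rule, with a median log2 fold change of 0.03. Both encode ubiquitin ligases known to target EGLN proteins for degradation. *Siah2* rose from 0.370 ± 0.185 to 11 ± 5.00 scaled TPM (SD, n = 3 each), a log2 fold change of 3.03 (SE 0.44, adjusted p = 0.037). *Siah1a* rose from 4.30 ± 1.24 to 21.8 ± 1.98, a log2 fold change of 2.13 (SE 0.31, adjusted p = 0.036). The adjusted p ranged over the 18 alternative settings from 0.0018 to 0.169 for *Siah2* and to 0.178 for *Siah1a*. Without overlap, 2 of the 14 were higher, these same genes, and 3 lower, against 13.1% and 9.75% of all tested genes. Those lower were *Cited2* (log2 fold change -0.45, adjusted p = 0.480, limma) and, at values below 1, *P4htm* and *Npas3*. No *Egln* gene fell at the RNA level by the test, and the assay does not read protein.

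Among 23 other tested targets of HIF, 1 was called higher and 1 lower, against 1.85% and 1.43% of all tested genes by either rule, with a median of 0.10. *Hmox1*, the haem-degrading enzyme, which is also induced by oxidative stress, rose from 737 ± 286 to 3742 ± 1235 scaled TPM (log2 fold change 2.36, SE 0.42, adjusted p = 0.054). *Pfkfb4*, a regulator of glycolytic flux that is a HIF target, fell from 33.4 ± 18.7 to 4.63 ± 2.31 (log2 fold change -2.55, SE 0.52, adjusted p = 0.071). The other 21 of the 23 tested targets passed neither rule. Among them, *Car9*, *Car12*, *P4ha2*, *Plod2*, *Stc2*, *Igfbp3*, *Ak4* and *Aqp1* were below 1 scaled TPM in every sample. At such values the pseudocount of 1 keeps a difference within the fold limit, so a missing call says little. Of the 23, 6 were higher and 2 lower without overlap, against 13.1% and 9.75% of all tested genes. Those higher included *Car12* and *Igfbp3*, at these low values. *Rab20* (log2 fold change 2.30, adjusted p = 0.143, limma) and *Edn1* (2.07, adjusted p = 0.171) were among those higher. *Cxcr4* (-0.92, adjusted p = 0.209) and *Pfkfb4* were those lower.

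Of 20 glycolysis genes 1 was called, higher, against 1.85% of all tested genes by either rule, with a median of 0.33. The log2 fold change was above 0 in 12 and below 0 in 8. Without overlap, 4 were higher (*Slc16a1*, *Aldoa*, *Ldha* and *Eno2*) and 0 lower, against 13.1% and 9.75% of all tested genes. It was *Slc16a1*, the lactate and pyruvate carrier MCT1, at 0.236 ± 0.286 untreated and 13 ± 2.78 with LPS (log2 fold change 3.51, SE 0.33, adjusted p = 0.014). The genes of that list with the highest values were not called, *Gapdh* being 231 ± 121 and 96.5 ± 28.1 scaled TPM (log2 fold change -1.15, adjusted p = 0.312) and *Pkm* 162 ± 154 and 105 ± 35.3 (log2 fold change -0.26, adjusted p = 0.844).

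Of 15 genes of mTORC1 control, the pathway on which DDIT4 acts, 1 was called, higher, against 1.85% of all tested genes by either rule. *Rraga*, a GTPase that recruits mTORC1 to the lysosome, rose from 2.59 ± 1.73 to 26.2 ± 1.62 scaled TPM (log2 fold change 3.04, SE 0.42, adjusted p = 0.033), while its partner *Rragc* (log2 fold change -0.01) and the stress sensor *Sesn2* (log2 fold change -0.19) were not called. The median of the list was 0.03. Without overlap, 3 genes of the list were higher and 1 lower, against 13.1% and 9.75% of all tested genes. Of 14 mitophagy genes, the process in which BNIP3 acts, 0 were called by either rule, against 3.28% of all tested genes. Their median was 0.61. The cargo receptor *Sqstm1* was at 509 ± 293 untreated and 1386 ± 195 with LPS (adjusted p = 0.171), and *Gabarap* at 131 ± 42.4 and 277.5 ± 65.3 (adjusted p = 0.196), in both without overlap of the groups. *Map1lc3b* and *Optn* lay without overlap in the other direction. Of the 14 genes, 6 were higher and 2 lower without overlap, against 13.1% and 9.75% of all tested genes.

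In the collagen hydroxylation list, to which P4HA1 belongs by function, 0 of 12 genes were called by either rule, against 3.28% of all tested genes. The median was 0.01. Without overlap, 2 were higher and 1 lower, against 13.1% and 9.75% of all tested genes. *Colgalt1* (log2 fold change 2.09, adjusted p = 0.187, limma) was among those higher. *P4hb*, the partner subunit of P4HA1, was at 74.0, 3.96 and 31.9 scaled TPM untreated and at 59.6, 47.3 and 51.9 with LPS (adjusted p = 0.551), so that untreated 1 was again the highest and the LPS samples lay close together. *Ppib* was at 292, 169 and 14.1 untreated and at 60.7, 58.3 and 62.9 with LPS (adjusted p = 0.792). Of 11 genes of the adrenomedullin system 0 were called by either rule, against 3.28% of all tested genes, with a median of 0.03. The receptor component *Ramp3* was at 0.371, 0 and 7.14 untreated and 2.70, 2.43 and 4.21 with LPS (adjusted p = 0.582), and *Crcp* was at 6.38 ± 4.0 and 3.83 ± 0.60 (adjusted p = 0.572). In any of the lists, the pseudocount of 1 keeps the difference of a gene within the fold limit where all its values are low. A missing call says little there. Of the 11 genes, 2 were higher and 0 lower without overlap, against 13.1% and 9.75% of all tested genes. Among them, *Calca* was at 0.230 ± 0.255 untreated and 1.95 ± 1.09 with LPS (SD, n = 3 each).

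**Figure D4:**
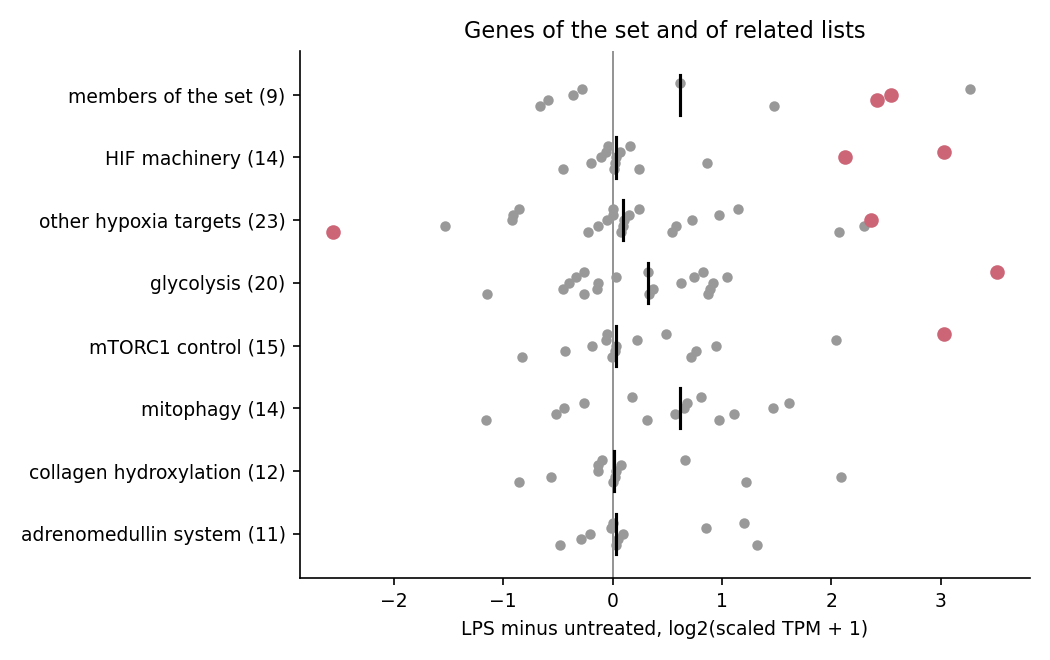
Difference of each tested gene (LPS minus untreated, log2(scaled TPM + 1)) in the set of 9 and in 7 related lists, with the number of genes in brackets, a black line at the median and red for genes called by either rule. Either rule called 2 of 9 in the set and 2 of 14 in the HIF machinery, against 3.28% of all tested genes. It called 0 in mitophagy, collagen hydroxylation and the adrenomedullin system.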

How the data were processed

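RNA of 6 samples of cGAS-/- neutrophils was sequenced from strand-specific libraries. Per the labels and methods, the authors used fastp, STAR and Kallisto and scaled the values with edgeR. The submitters' notes name the builds GRCm39 and mm10, and the annotation release is not given in the sources used here. The deposited table, named as normalized counts, was taken to hold TPM averaged over transcripts: in untreated 3, 86.0% of 1395 long decimals became short when multiplied by a whole number up to 30, but only 0.386% of 5960 did in untreated 1, so this trace of averaging was seen in 1 sample and assumed for the others. Depth cannot be read from it. Groups came from sample titles. The 15690 genes that were at 0 throughout were not tested. limma 3.58.1 in R 4.3.3 (lmFit, eBayes with a trend, two-sided) was run on log2(value + 1), LPS minus untreated, without covariates, since voom, the test of the methods, needs counts and was an alternative. Members and lists were chosen with earlier results of these data known. By rule, genes named beside the members are those called in each list, or the 2 with the highest mean where fewer than 2 were called (for Hif1a, the 3 most correlated). Other genes of the lists, such as Rab20, Edn1, Cxcr4, Aldoa, Map1lc3b and Calca, were named outside this rule after their values had been seen. They were named because their groups did not overlap or their values were low. Positions come from GENCODE M39 (GRCm39, 35599 symbols matched) and promoters from RefSeq. Near-identical transcripts were searched with blastn 2.17.0. Cgas was at 0.0286 to 0.307 scaled TPM. Values were summarised in Python 3.11.15 with scipy 1.17.1 and pandas 2.3.3 and plotted with matplotlib 3.10.9, and the fit was tested on simulated data.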

Additional observations from a re-analysis of the deposited data

How the results depend on the processing

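The 389 genes called higher and 301 called lower became 856 and 493 with a pseudocount of 0.1, 129 and 168 with a pseudocount of 5, 220 and 522 with the protein-coding sum set equal, and 1540 and 180 with voom weights, which raise the median of all genes to 0.67. At an adjusted p under 0.05 and a log2 fold change over 1, 197 were called higher and 216 lower, and among protein-coding genes alone, a setting added after seeing the data, 293 and 44. Leaving out 1 sample gave 260 to 463 higher and 263 to 394 lower. The 2 members called became 0 with a pseudocount of 5 and by the adjusted rule, 1 (Adm) with the protein-coding sum set equal and 1 (Adm) without both samples numbered 2, also added after seeing the data, and 0 to 2 leaving out 1 sample. Without untreated 1 the 2 called were Ddit4 and P4ha1. At an adjusted p under 0.05, 0 members became 2 (Adm and Egln2) among genes with a mean of at least 1, 4 with voom weights (these with Ddit4 and Hif1a) and 0 to 2 leaving out 1 sample. Of all genes, 1040 of 9403 passed that limit with a mean of at least 1 and 9303 of 23049 with voom weights, so many genes passed in these fits. The 3 members without overlap became 4 with quantile normalization and with voom weights (Hif1a added) and 4 with the protein-coding sum set equal (Bnip3 added). They became 6 without both samples numbered 2 and 3 to 7 leaving out 1 sample, the 7 without untreated 1. Differences changed sign for Egln1 with voom weights (0.31), without both samples numbered 2 (0.23) and without untreated 2 (0.25), the range over single samples left out being -1.24 to 0.25, for Bnip3 with voom weights (0.0082), and for Ankrd37 with voom weights (0.34) and without untreated 2 (0.16; range -0.82 to 0.16). Hif1a, Egln2, Egln3, Ddit4, P4ha1 and Adm kept their sign in all 18 alternatives. The fit with voom weights also scales each sample by its summed value, so it differs from the main fit in more than the weights. The cause of these changes was not tested.

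The replicate numbers were used as a replicate block in a further fit, which called 387 genes higher, 303 lower and 2 members. At an adjusted p under 0.05 it called 16 genes in place of 424, and leaving out 1 LPS sample called 11 to 28. With the block Siah2, Siah1a, Slc16a1 and Rraga had adjusted p-values of 0.125, 0.126, 0.0803 and 0.0977 (limma). By the study's limits Rraga was called in all 18 alternatives, Siah2, Slc16a1 and Hmox1 in 17, and Siah1a and Pfkfb4 in 15. Deviations from the group means correlated at 0.102, 0.220 and 0.0925 between samples of the same number over 9403 genes. Between samples of different number they correlated at -0.151 to 0.0658, so each sample correlated best with its own number. As not all same-number values were above 0.1, the main fit did not pair the samples. These correlations do not settle whether the numbers pair them. The unknown depth limits low values such as those of Adm and Ankrd37.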

Other observations

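Calcrl, the receptor that binds adrenomedullin together with a RAMP protein, was looked at after its values had been seen. It was at 1.85, 0.164 and 0.301 scaled TPM in untreated samples 1, 2 and 3 and at 3.64, 1.66 and 4.43 in the LPS samples. Untreated 1 lay above LPS 2, and the log2 fold change was 1.32 (adjusted p = 0.252, limma). Calcrl was not called, and at such low values the pseudocount of 1 shrinks the difference.

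Among genes that can come from cells other than neutrophils, the mast cell markers other than Hdc, which is also a neutrophil marker, summed to 4.69, 5.40 and 40.8 scaled TPM untreated and 23.7, 5.05 and 49.1 with LPS, with overlap. With Hdc the sums were 25.7 to 85.1 and 83.1 to 132. T or NK cell markers summed to 15.6 to 19.2 and 7.53 to 17.0, eosinophil markers to 3.10 to 8.52 and 2.02 to 5.31, and dendritic cell markers to 1.38 to 6.23 and 2.23 to 4.69. None of the genes in these 4 lists was called by either rule, against 3.28% of all tested genes.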
